A study of Mus musculus with 9 samples.

Results

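The Ly49 receptors are encoded by the Klra genes of mouse, and 9 of them (Klra1, Klra2, Klra3, Klra4, Klra5, Klra7, Klra8, Klra9 and Klra10) were followed here among 54532 genes in RNA from injured tibialis anterior muscle, a muscle of the front of the lower hind leg. The members were chosen by gene symbol, and the family was chosen by the difference of Klra7 between old P311-/- and old wild type. Values of that comparison are therefore given as a description, without a test. The 3 groups, with 3 libraries each, were old P311-/- mice, labelled as carrying a deletion of P311 (gene symbol Nrep), old wild-type mice of 24 months, and young wild-type mice of 4 to 6 months. All groups had injured muscle and no uninjured muscle was among these samples. For the P311-/- mice no age in months and no cell type of the deletion is stated in the labels, and the kind of injury, the time since then and the mouse strain are not stated for any group. Replicates are numbered 1 to 3 in the labels, which do not say whether each is a separate animal, so a p-value here sets a difference against the spread among libraries, which may be technical.

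Ly49 receptors are C-type lectin-like proteins that sit as dimers on natural killer (NK) cells and on some T cells. Inhibitory members carry a tyrosine motif (ITIM) in the cytoplasmic tail that recruits phosphatases when the receptor binds major histocompatibility complex (MHC) class I on another cell. Activating members lack the motif and signal through the adaptor DAP12, the product of Tyrobp. Each NK cell expresses its own subset of the genes, and the number and kind of Ly49 genes differ among inbred mouse strains. Reads here were assigned to the genes of the reference genome.

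The 2 classes can be read in the first codons, and the start of each coding sequence is shown for that reason. The first 45 coding bases are given 5′ to 3′ from GENCODE M21 (GRCm38, chromosome 6, minus strand), with codon 8 in capitals. In 7 members that codon encodes the tyrosine of an ITIM. In Klra4 and Klra8 it encodes phenylalanine, and no ITIM pattern (I, V, L or S, any residue, Y, any 2 residues, then I, V or L) was found in their first 45 residues.
Klra7: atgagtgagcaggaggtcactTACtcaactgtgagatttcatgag
Klra3: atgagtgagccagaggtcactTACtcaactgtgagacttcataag
Klra9: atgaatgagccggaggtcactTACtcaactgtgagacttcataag
Klra1: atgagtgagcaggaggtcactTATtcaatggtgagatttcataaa
Klra5: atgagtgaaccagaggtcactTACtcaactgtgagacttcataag
Klra10: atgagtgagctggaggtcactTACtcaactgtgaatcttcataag
Klra2: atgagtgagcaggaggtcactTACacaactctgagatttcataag
Klra4: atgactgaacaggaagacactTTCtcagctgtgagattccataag
Klra8: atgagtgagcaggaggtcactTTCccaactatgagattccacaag

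Klra7 encodes Ly49G, Klra3 Ly49C, Klra9 Ly49I, Klra1 Ly49A, Klra5 Ly49E and Klra10 Ly49J, all inhibitory. Klra2 encodes Ly49B, an inhibitory member found on myeloid cells. Klra4 encodes Ly49D and Klra8 encodes Ly49H, both activating, and Ly49H binds the m157 protein of mouse cytomegalovirus.

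All 9 genes lie on the minus strand of chromosome 6 (GRCm38). Klra7 (ENSMUSG00000067599) lies at chr6:130218605-130233322, Klra3 at chr6:130323289-130337574, Klra9 at chr6:130178675-130193112, Klra4 at chr6:130043731-130067271 and Klra8 at chr6:130115226-130129898. Klra1 lies at chr6:130363917-130386874, Klra10 at chr6:130269194-130281928 and Klra5 at chr6:129898996-129917650. Klra2 stands apart from this cluster, at chr6:131219223-131247362.

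Recovered reads ranged from 14222204 to 31910890 per library. Nrep was at 14.8, 6.37 and 9.72 FPKM (reads scaled to gene length and library size) in old P311-/-, against 72.4, 71.4 and 83.1 FPKM in old wild type and 86.3, 72.6 and 63.9 FPKM in young wild type, lower in each P311-/- library than in any other. The P311-/- mean was thus 13.6% of that in old wild type and not 0, and which part of the gene was deleted is not stated in the labels. The 8 skeletal muscle markers summed to at least 40564 FPKM in every library, so the tissue carried its defining genes. The 10 T cell markers summed to 12.9, 3.58 and 4.82 FPKM in old P311-/-, against 5.97 to 8.07 FPKM among old and 6.90 to 8.13 FPKM among young wild-type libraries. Replicate 1 of old P311-/- was the highest of its group in markers of NK, T and B cells, macrophages and dendritic cells.

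Ly49 transcripts were scarce. Of the 9 members, 6 (Klra7, Klra3, Klra9, Klra4, Klra8 and Klra2) passed the filter of at least 0.5 FPKM and at least 10 reads in at least 3 libraries, as did 14233 of all genes. For all 6 the 3 old wild-type libraries alone met the filter, so a gene low in old wild type had less chance to be tested, and the counts over these members are a description. Klra1, Klra5 and Klra10 did not pass. In muscle, fewer NK cells and less of the transcript in each NK cell cannot be told apart. A difference between the groups in mouse strain or in the assignment of reads was not tested.

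In old P311-/- muscle 5 of the 9 members, Klra7, Klra3, Klra9, Klra4 and Klra8, were below old wild type in all libraries, and Klra1, Klra2, Klra5 and Klra10 overlapped. Among all 14233 genes tested, 9.39% were below in the same way. As a percentage of the mean of old wild type, the mean of old P311-/- was 20.3% for Klra7, 55.2% for Klra3, 33.2% for Klra9, 9.81% for Klra4, 8.95% for Klra8 and 57.0% for Klra2.

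**Figure D1:**
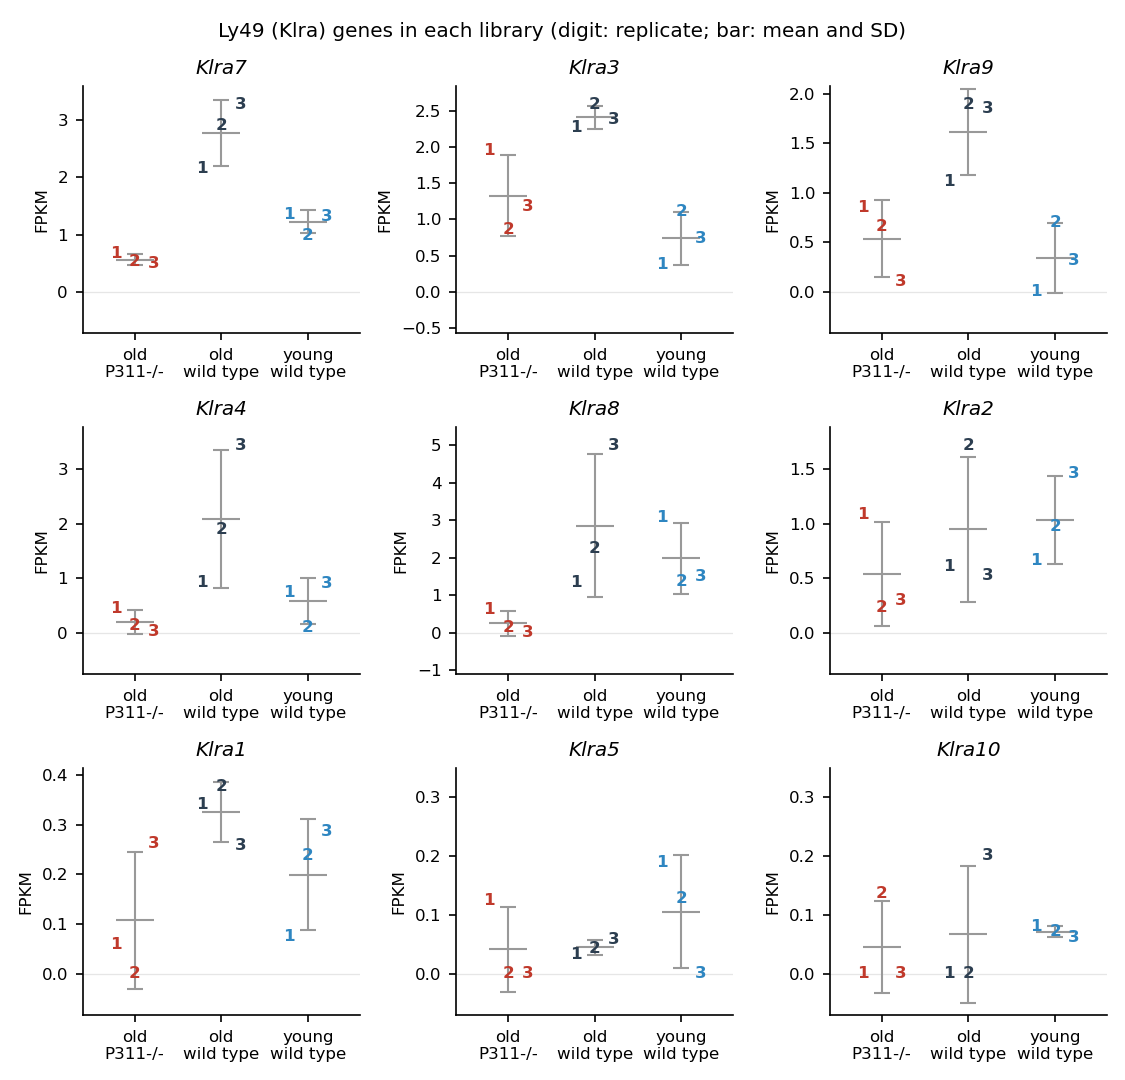
FPKM of the 9 Ly49 genes in each library, by group; digits are replicate numbers, and the bar with whiskers is the mean and SD of 3 libraries. Klra7 in old P311-/- stayed at or below 0.665 FPKM, under the lowest wild-type library, while Klra2 mixed all 3 groups.

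Among the inhibitory members, Klra7 had 0.665, 0.531 and 0.497 FPKM in old P311-/- libraries, 2.15, 2.91 and 3.27 FPKM in old wild-type libraries and 1.36, 0.993 and 1.32 FPKM in young wild-type libraries. These values rest on 12 to 24 reads per library in old P311-/-, 59 to 100 among old and 21 to 33 among young wild-type libraries. No pair of groups overlapped, and the young libraries lay between the others. The log2 difference between old P311-/- and old wild type was -2.10 (SE 0.22).

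Klra3 had 1.95, 0.859 and 1.18 FPKM in old P311-/-, 2.27, 2.58 and 2.37 FPKM in old wild type and 0.373, 1.11 and 0.736 FPKM in young wild type. The old P311-/- libraries were below old wild type and overlapped young wild type, and the old wild-type libraries were close to each other. Klra3 was the member with the smallest log2 difference between old P311-/- and old wild type among those whose groups did not overlap (-0.88, SE 0.36).

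Klra9 had 0.850, 0.656 and 0.104 FPKM in old P311-/-, 1.12, 1.89 and 1.84 FPKM in old wild type and 0, 0.702 and 0.317 FPKM in young wild type. With 0 reads, young replicate 1 allows up to 0.155 FPKM, the value of 3 reads. Old wild type was above both other groups in every library, and those overlapped each other. The log2 difference between old P311-/- and old wild type was -1.67 (SE 0.78).

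Of the activating members, Klra4 had 0.451, 0.135 and 0.0266 FPKM in old P311-/-, 0.926, 1.89 and 3.42 FPKM in old wild type and 0.742, 0.0961 and 0.894 FPKM in young wild type. The values of old P311-/- came from 16, 3 and 1 reads. Old P311-/- and young wild type overlapped, and the old wild-type libraries spread widely among themselves. The log2 difference between old P311-/- and old wild type was -2.93 (SE 0.75).

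Klra8 had 0.625, 0.142 and 0 FPKM in old P311-/-, 1.33, 2.25 and 4.99 FPKM in old wild type and 3.08, 1.37 and 1.50 FPKM in young wild type. The listed 0 comes from 0 reads, which allows up to 0.0843 FPKM. Old P311-/- was below both wild-type groups in every library, and the wild-type groups overlapped. The log2 difference between old P311-/- and old wild type, -3.31 (SE 0.70), was the most negative among the 6 members tested.

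Klra2, the member of myeloid cells, had 1.09, 0.236 and 0.296 FPKM in old P311-/-, 0.607, 1.72 and 0.523 FPKM in old wild type and 0.661, 0.977 and 1.47 FPKM in young wild type, with all groups overlapping. Macrophage markers summed to 626, 284 and 416 FPKM in old P311-/-, 665, 398 and 490 FPKM in old wild type and 605, 793 and 822 FPKM in young wild type. Within old P311-/- both quantities were highest in replicate 1, and within young wild type in replicate 3. In old wild type Klra2 was highest in replicate 2, the library with the lowest macrophage sum.

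The members below the filter reached no more than 0.376 FPKM in any library. Klra1 had 0.0596, 0 and 0.263 FPKM in old P311-/-, 0.340, 0.376 and 0.258 FPKM in old wild type and 0.0749, 0.237 and 0.287 FPKM in young wild type. Klra5 had at most 5 reads and Klra10 at most 4 reads in any library, so differences in them were not detectable at this depth.

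Ordered by mean, Klra3 was the highest member in old P311-/- (1.33 ± 0.564 FPKM, SD, n = 3), and its libraries did not overlap those of the next, Klra7 (0.564 ± 0.0890 FPKM, SD, n = 3). Old wild type had Klra8 first (2.86 ± 1.90 FPKM, SD, n = 3), followed by Klra7 (2.78 ± 0.573), Klra3 (2.41 ± 0.159), Klra4 (2.08 ± 1.26), Klra9 (1.62 ± 0.433) and Klra2 (0.949 ± 0.666), and each overlapped its neighbour in that order. Young wild type also had Klra8 first (1.99 ± 0.952 FPKM, SD, n = 3). By a narrow gap (1.37 against 1.36 FPKM), Klra8 was above Klra7 (1.22 ± 0.200 FPKM, SD, n = 3) in every library. After Klra7, the members Klra2, Klra3, Klra4 and Klra9 overlapped from neighbour to neighbour.

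The make-up of the family is given as a description, since its values include those that chose the family. Klra3 held 33.6%, 31.9% and 49.8% of the summed FPKM of the 9 members in old P311-/-, 25.9%, 18.9% and 14.0% in old wild type and 5.69%, 19.5% and 11.2% in young wild type. Klra8 held 10.7%, 5.29% and 0% in old P311-/-, 15.2%, 16.5% and 29.4% in old wild type and 47.0%, 24.1% and 22.8% in young wild type. The share of Klra3 was thus higher in old P311-/- than in either wild-type group in every library, and the share of Klra8 lower. Klra7 held 11.4% and more in old P311-/-, with 19.3% to 24.5% among old and 17.5% to 20.7% among young wild-type libraries, and old P311-/- overlapped both. Shares of a sum are not independent of each other, so a lower Klra7 raises the shares of the other members. The shares of Klra8 in old P311-/- rest on 21, 3 and 0 reads.

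Old P311-/- was set against young wild type to place the knockout beside young muscle, and it shares its P311-/- libraries with the comparison that chose the family. Klra7 and Klra8 were below young wild type in all libraries, as were 12.0% of all genes tested. With limma, 0 of 6 members passed at an adjusted p under 0.05, 2 had an unadjusted p under 0.05, and voom on recovered reads also called 0. Of all genes 0.400% passed and 21.4% had an unadjusted p under 0.05. Klra8 had a log2 fold change of -2.91 (SE 0.70, limma adjusted p = 0.0913), Klra7 -0.99 (SE 0.22, adjusted p = 0.0801) and Klra4 -1.11 (SE 0.75, adjusted p = 0.408). Klra3 had 0.80 (SE 0.36, adjusted p = 0.241), Klra9 0.71 (SE 0.78, adjusted p = 0.620) and Klra2 -1.01 (SE 0.56, adjusted p = 0.322). Without old P311-/- replicate 1, both Klra7 (log2 fold change -1.10, adjusted p = 0.0144) and Klra8 (-3.65, adjusted p = 0.00606) passed, but so did 2785 of all genes, a share of 19.6%, and the P311-/- values of Klra7 had a part in choosing the family.

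Old was set against young wild type to ask how injured muscle differs with age, and the old wild-type libraries are those of the comparison that chose the family, so for Klra7 the test is not independent of that choice. Klra7 and Klra3 passed as higher in old muscle, 2 of the 6 members tested, beside 3.39% of all genes higher and 5.40% in either direction. The old wild-type values of Klra7 had a part in choosing the family, and old wild type alone could bring a member past the filter, so nothing is read from this count. Klra7 averaged 2.78 ± 0.573 FPKM in old wild type and 1.22 ± 0.200 FPKM in young wild type (SD, n = 3 each), a 2.27-fold ratio of means (log2 fold change 1.11, SE 0.22, limma adjusted p = 0.0331). Klra3 averaged 2.41 ± 0.159 FPKM in old wild type and 0.740 ± 0.369 FPKM in young wild type (SD, n = 3 each), a 3.26-fold ratio (log2 fold change 1.68, SE 0.36, limma adjusted p = 0.0378).

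Klra9 and Klra4 were also above young wild type in every old library and did not pass. Klra9 had a ratio of means of 4.76 (log2 fold change 2.38, SE 0.78, limma adjusted p = 0.0949) and Klra4 of 3.60 (log2 fold change 1.82, SE 0.75, adjusted p = 0.160). Old libraries lay above all young ones for these 4 members and for 19.0% of all genes tested. Klra8 (log2 fold change 0.40, SE 0.70, adjusted p = 0.753) and Klra2 (-0.23, SE 0.56, adjusted p = 0.826) overlapped.

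The calls of Klra7 and Klra3 were near the threshold. Without old wild-type replicate 2 or 3, or without any 1 of the young replicates, neither passed, and without old P311-/- replicate 3 or old wild-type replicate 1 Klra7 alone did. With the library totals as scale, which moves the median of all genes by -0.13, neither passed.

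**Figure D2:**
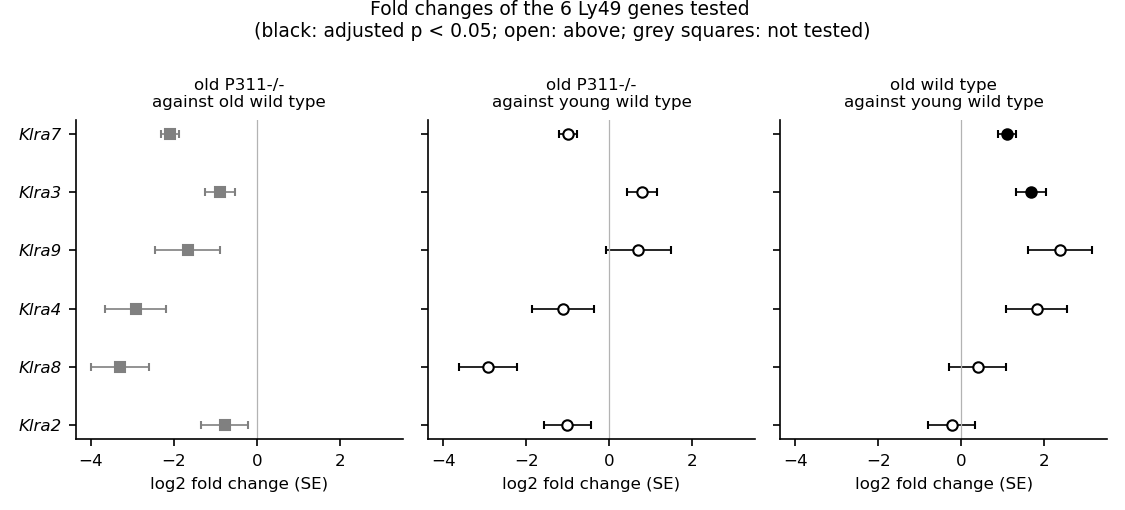
Log2 fold changes of the 6 tested Ly49 genes with their standard errors in 3 comparisons, tested only in the panels against young wild type. Filled points, adjusted p under 0.05, are Klra7 and Klra3 in old against young wild type; Klra8 sits at -3.31 and -2.91 in the panels of old P311-/-.

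NK cell content was gauged by 10 marker genes (Ncr1, Klrb1c, Klrk1, Klrd1, Klre1, Gzma, Prf1, Nkg7, Eomes and Il2rb), several of which cytotoxic T cells also express. Their sum was 20.3, 6.29 and 10.1 FPKM in old P311-/-, 24.6, 19.3 and 23.5 FPKM in old wild type and 12.2, 12.4 and 12.8 FPKM in young wild type. No marker of the 10 was at 0 in any library. The sum in old wild type was above that in young wild type in every library, and replicate 1 of old P311-/- was inside the range of old wild type. The markers did not all move alike. Il2rb was lower in every old wild-type library than in young ones (means 1.24 and 1.76 FPKM). The means of Prf1 (0.541 and 0.573 FPKM) and Eomes (0.205 and 0.208 FPKM) were not higher in old wild type, and those of the other markers were. In old P311-/- against old wild type, the mean of Eomes was higher (0.316 and 0.205 FPKM) and that of Il2rb similar (1.22 and 1.24 FPKM). The means of the other markers were lower, with Gzma at 2.24 and 6.29 FPKM and Klrd1 at 2.15 and 5.17 FPKM. In old wild type Gzma, Nkg7 and Klrd1 had the highest means of the 10 and weigh most in the sum. The part of NK cell number in the Ly49 values was not tested.

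Set against that sum, the members fell into different patterns. Klra7 was 3.28%, 8.43% and 4.94% of the marker sum in old P311-/-, 8.73%, 15.1% and 13.9% in old wild type and 11.2%, 8.02% and 10.3% in young wild type. Klra8 was 3.08%, 2.26% and 0% of it in old P311-/-, 5.40%, 11.7% and 21.3% in old wild type and 25.3%, 11.1% and 11.8% in young wild type. Klra4 was 0.264% to 2.22% in old P311-/-, 3.76% to 14.6% among old and 0.776% to 7.01% among young wild-type libraries. Old P311-/- was below old wild type in every library for these 3 members on this scale, for Klra7 by a narrow gap (8.43% against 8.73%). These are values of the comparison that chose the family, and the share of all genes below in this way on this scale was not computed. The old groups overlapped for Klra9, at 4.19%, 10.4% and 1.03% in old P311-/- and 4.54%, 9.79% and 7.86% in old wild type. They also overlapped for the sum of all 9 members, at 28.7%, 42.8% and 23.5% in old P311-/- and 35.6%, 70.8% and 72.2% in old wild type. Outside the Ly49 genes, Klrc1 separated likewise, at 3.58% to 4.62% in old P311-/- and 5.78% to 6.62% in old wild type. It encodes the receptor NKG2A, was chosen after its values were seen, and passed the filter only with old wild type. Among further genes on this scale, likewise chosen after their values were seen, Clec2d, Klrb1c, Klri1 and Gzma overlapped between the old groups. Klrb1c, Gzma and Nkg7 are themselves markers in the sum. Their percentages are shares of their own total, so lower values of other markers raise them. Nkg7 was higher in every old P311-/- library (27.2% to 38.0% against 19.1% to 26.4%), as was the T cell marker Cd3e. By FPKM the T cell markers did not move alike between the old groups. Cd6 was lower in every old P311-/- library (means 0.160 and 0.291 FPKM). The means of Cd3d, Cd3g, Cd5, Cd8a and Lat were also lower in old P311-/-, and those of Cd3e, Cd4, Cd8b1 and Trac were higher.

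Klra3 was 9.64%, 13.6% and 11.7% of the marker sum in old P311-/-, 9.22%, 13.4% and 10.1% in old wild type and 3.07%, 8.98% and 5.77% in young wild type. The old groups overlapped throughout on this scale, and old wild type was above young wild type in every library. The exact two-sided permutation test of old against young wild type gave p = 0.1 for Klra3, which is the smallest that 3 libraries against 3 allow, and p = 0.3 for Klra7. Over the 17 such exact tests made, the adjusted p of both was 0.567.

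**Figure D3:**
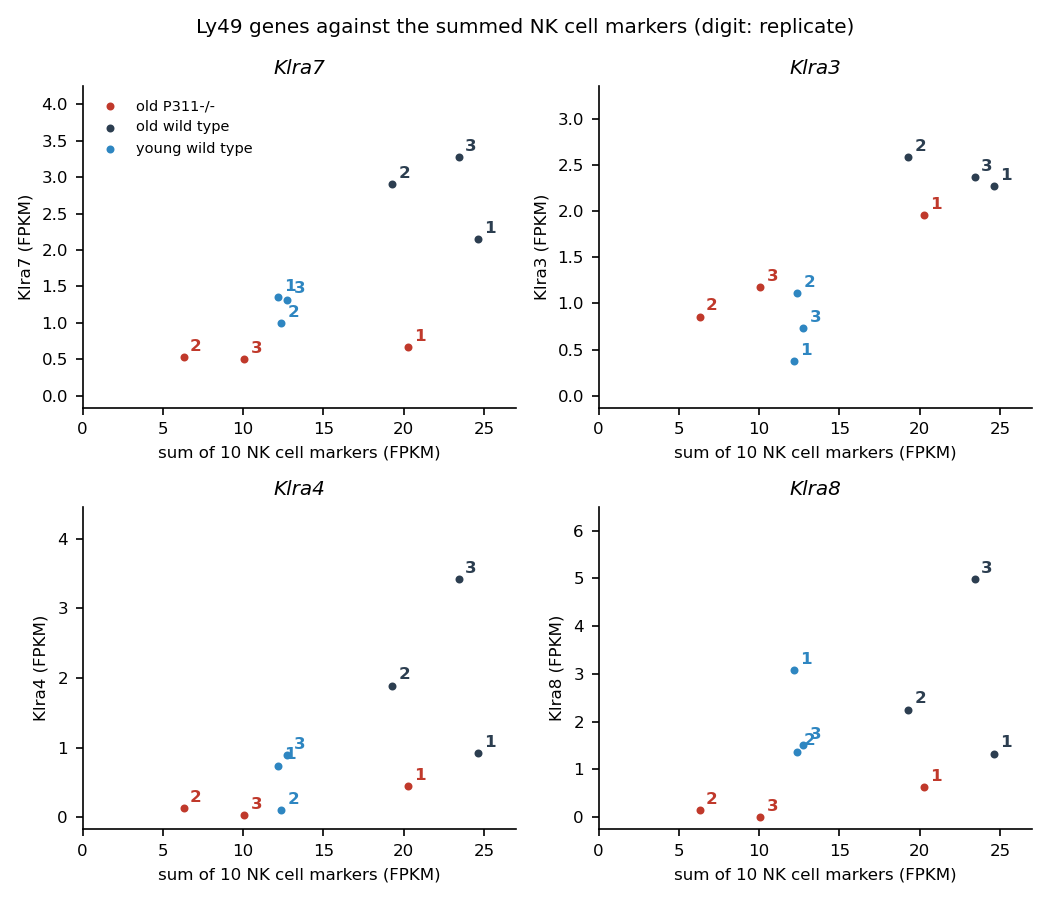
FPKM of Klra7, Klra3, Klra4 and Klra8 (vertical) against the summed FPKM of 10 NK cell markers (horizontal) in each library; digits are replicate numbers. Replicate 1 of old P311-/-, with a marker sum of 20.3 FPKM, lies among the old wild-type libraries on the horizontal axis and below them in all 4 panels.

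Other receptor genes of the NK gene complex, the region of chromosome 6 that also holds the Ly49 cluster, were compared as a list of 29 genes, 13 of which were tested. Against young wild type 2 of the 13 rose in old wild type, beside 3.39% of all genes, and none fell. Klrd1, which encodes CD94, the partner of the NKG2 receptors, had 4.79, 5.65 and 5.07 FPKM in old wild type and 1.34, 2.01 and 1.90 FPKM in young wild type (log2 fold change 1.53, SE 0.34, limma adjusted p = 0.0405). Clec2d, which encodes a ligand of the NKR-P1 receptors, averaged 83.4 ± 21.3 FPKM in old wild type and 28.1 ± 2.06 FPKM in young wild type (SD, n = 3 each; log2 fold change 1.54, SE 0.26, limma adjusted p = 0.0307). The median log2 fold change of the list was 0.87, against 0.0050 over all genes. Klrc1, Klrb1c, Klrk1 and Clec2e of this list passed the filter only with the old wild-type libraries. The counts and medians of the list are therefore a description. Below the filter, and chosen after their values were seen, Klrb1 had 18 reads in old P311-/- (0.120 to 0.189 FPKM) and Clec12b had 11 (0.0217 to 0.143 FPKM). Both had 0 reads in old and in young wild type. Klrc3 had 0 reads in old P311-/-, 13 in old wild type and 3 in young wild type. The cause of these differences was not tested.

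In old P311-/- against old wild type, where 0.0703% of all genes passed, 0 of the 13 passed by limma, 8 had an unadjusted p under 0.05 and voom called 0. Of all genes 16.1% had such a p. Of these 13 genes, 12 had a log2 fold change below 0, as did 50.4% of all genes, with a median of -0.74 against -0.0039 over all genes. Among the 12 were Klrc1, Klrb1c, Klrk1 and Clec2e, which passed the filter only with old wild type, so nothing is read from these counts. Klrd1 had 3.67, 1.18 and 1.60 FPKM in old P311-/-, below all old wild-type libraries (log2 fold change -1.38, SE 0.34, limma adjusted p = 0.242). Clec7a, which encodes the fungal sensor dectin-1 of myeloid cells, averaged 13.8 ± 12.8 FPKM in old P311-/- and 26.3 ± 6.24 FPKM in old wild type (SD, n = 3 each; log2 fold change -1.30, SE 0.51, limma adjusted p = 0.281). Clec12a, an inhibitory receptor of myeloid cells, averaged 3.62 FPKM in old P311-/- and 6.24 FPKM in old wild type (limma adjusted p = 0.260). Klrc1 had a log2 fold change of -1.48 (SE 0.43, adjusted p = 0.253). Against young wild type the median of the list was 0.075, and 0 of 13 passed by limma (1 at an unadjusted p under 0.05, where all genes had 21.4%, and 0 by voom).

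Of 31 genes of NK cell function and identity, 20 were tested. In old against young wild type 0 passed by limma (4 at an unadjusted p under 0.05, 0 by voom), with a median log2 fold change of 0.028. In old P311-/- against young wild type 0 passed (2 unadjusted, 0 by voom), with a median of -0.31, and in old P311-/- against old wild type 0 passed (3 unadjusted, 0 by voom), with a median of -0.35. Over all genes 26.3%, 21.4% and 16.1% had an unadjusted p under 0.05 in these comparisons, in that order. Ccl5, a chemokine of cytotoxic lymphocytes, averaged 9.70 ± 7.72 FPKM in old P311-/-, 13.2 ± 6.68 FPKM in old wild type and 9.08 ± 0.847 FPKM in young wild type (SD, n = 3 each). Irf8, a transcription factor of NK and myeloid cells, averaged 3.29 FPKM in old P311-/-, 3.39 FPKM in old wild type and 4.67 FPKM in young wild type. Gzma, which encodes granzyme A and was chosen after its values were seen, averaged 2.24 ± 0.994 FPKM in old P311-/-, 6.29 ± 2.31 FPKM in old wild type and 2.61 ± 0.749 FPKM in young wild type (SD, n = 3 each). Its log2 fold change was -1.49 in old P311-/- against old wild type (SE 0.39, limma adjusted p = 0.243) and its adjusted p in old against young wild type was 0.0955. Nkg7, a protein of cytotoxic granules, averaged 4.32 FPKM in old P311-/-, 5.34 FPKM in old wild type and 3.71 FPKM in young wild type, with all groups overlapping.

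All 20 genes of Ly49 ligands and signalling were tested, and 0 passed in old against young wild type by limma (6 at an unadjusted p under 0.05, 0 by voom). In old P311-/- against young wild type 0 passed (9 unadjusted, 0 by voom), and in old P311-/- against old wild type 0 passed (2 unadjusted, 0 by voom). These unadjusted counts stand beside the same 26.3%, 21.4% and 16.1% of all genes. The medians were -0.27, -0.41 and -0.11 in that order. H2-D1, an MHC class I heavy chain bound by Ly49 receptors, averaged 144 ± 38.2 FPKM in old P311-/-, 146 ± 32.7 FPKM in old wild type and 236 ± 21.9 FPKM in young wild type (SD, n = 3 each). Its log2 fold change was -0.035 in old P311-/- against old wild type (SE 0.22, limma adjusted p = 0.948). H2-K1, another class I heavy chain, averaged 109 ± 34.2 FPKM in old P311-/-, 115 ± 16.4 FPKM in old wild type and 173 ± 5.03 FPKM in young wild type (SD, n = 3 each). B2m, the light chain of class I, averaged 350 ± 143 FPKM in old P311-/-, 523 ± 83.2 FPKM in old wild type and 527 ± 29.7 FPKM in young wild type (SD, n = 3 each). Tyrobp, the adaptor of the activating members, which was chosen after its values were seen, averaged 43.4 ± 24.1 FPKM in old P311-/-, 69.2 ± 14.9 FPKM in old wild type and 70.4 ± 10.8 FPKM in young wild type (SD, n = 3 each), and macrophages also express it.

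Further rows of the Ly49 cluster outside the 9 members were the genes Klra6 and Klra17 and the pseudogenes Klra11-ps, Klra13-ps and Klra14-ps. Klra13-ps had 1.15, 1.24 and 0.668 FPKM in old P311-/-, 2.88, 4.35 and 3.70 FPKM in old wild type and 2.09, 1.26 and 0.778 FPKM in young wild type. Klra14-ps had 0.252, 0.0503 and 0 FPKM in old P311-/-, 0.580, 1.25 and 0.855 FPKM in old wild type and 0.297, 0.323 and 0.409 FPKM in young wild type. Both pseudogenes had the order of group means of Klra7, with old wild type above the other groups in every library. Against young wild type, Klra13-ps passed in old wild type (a 2.64-fold ratio of means, limma adjusted p = 0.0472) and Klra14-ps did not (log2 fold change 1.12, SE 0.51, adjusted p = 0.200). The call of Klra13-ps was near the threshold and used the old wild-type libraries of the comparison that chose the family. Its reads may in part be those of Klra7, with which it shares sequence. Klra14-ps reached 0.5 FPKM only in the 3 old wild-type libraries, so it was tested only through the group where it was high. The reads of Klra14-ps may in part be those of Klra8, with which it shares a run of 165 bases.

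Klra6 had 0, 0 and 0.0297 FPKM in old P311-/-, 0, 0 and 0.0742 FPKM in old wild type and 0.237, 0.268 and 0.680 FPKM in young wild type. It was the only one of these 5 further rows whose young libraries were above all old ones, from 4, 5 and 15 reads. Klra17 reached no more than 0.312 FPKM, and Klra11-ps had at most 1 read in any library.

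The genes next to the Klra rows on either side, Gm16242 and Gm5582, were at 0 in all libraries and at no more than 0.388 FPKM. The nearest genes past the filter were Klri1, another NK receptor gene, beyond Gm16242 and Magohb, a gene of the exon junction complex, beyond Gm5582, both chosen after their values were seen. Klri1 had 1.17, 0.334 and 0.316 FPKM in old P311-/-, 0.0550, 0.720 and 1.23 FPKM in old wild type and 0.630, 0.857 and 0.181 FPKM in young wild type, with all groups overlapping. Magohb had 2.14 to 2.39 FPKM in old P311-/-, 2.12 to 2.22 FPKM among old and 1.44 to 2.11 FPKM among young wild-type libraries.

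**Figure D4:**
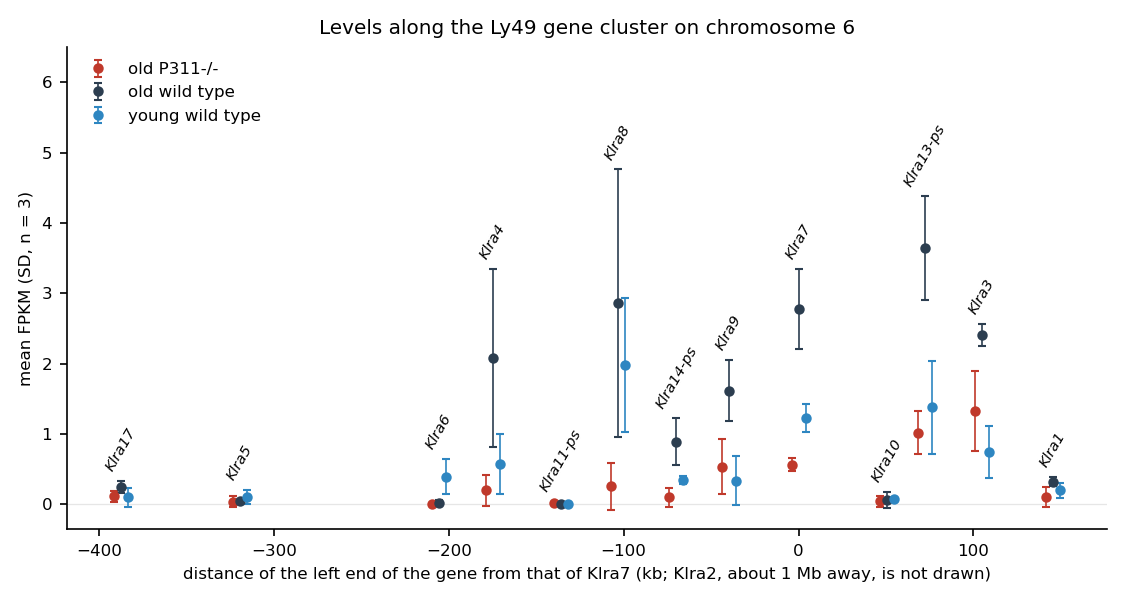
Mean FPKM with SD (n = 3) of the 13 Klra genes of the cluster by distance from Klra7, in kilobases. Klra7, Klra13-ps, Klra9, Klra3, Klra4, Klra14-ps and Klra8 have their highest mean in old wild type, as do the low Klra1 and Klra17. Klra8 in old wild type overlaps young wild type. Klra10 and Klra11-ps, near 0, lie among these genes.

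The genes of the cluster are close copies, and reads can be shared among them. Coding sequences of Klra9 and Klra10 were identical at 96.9% of aligned bases, Klra3 and Klra10 at 96.2%, and Klra3 and Klra9 at 95.9%. Klra7 was nearest to Klra1, and Klra2 stood farthest from the rest, with 75.5% to its nearest member, Klra7. Of all 50-base windows in the transcripts, 12.3% of Klra7, 33.1% of Klra8, 31.5% of Klra9, 20.7% of Klra3 and 4.68% of Klra4 were found letter for letter in another gene, and 0% of Klra2. At 150 bases the share was 0% for Klra7, Klra3, Klra9 and Klra4 and 6.03% for Klra8, whose windows were all found in Klra14-ps. The labels state neither the read length nor how reads with several matches were handled, so of the tested members Klra8, Klra9 and Klra3 are the least certain to hold the reads of 1 gene only.

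**Figure D5:**
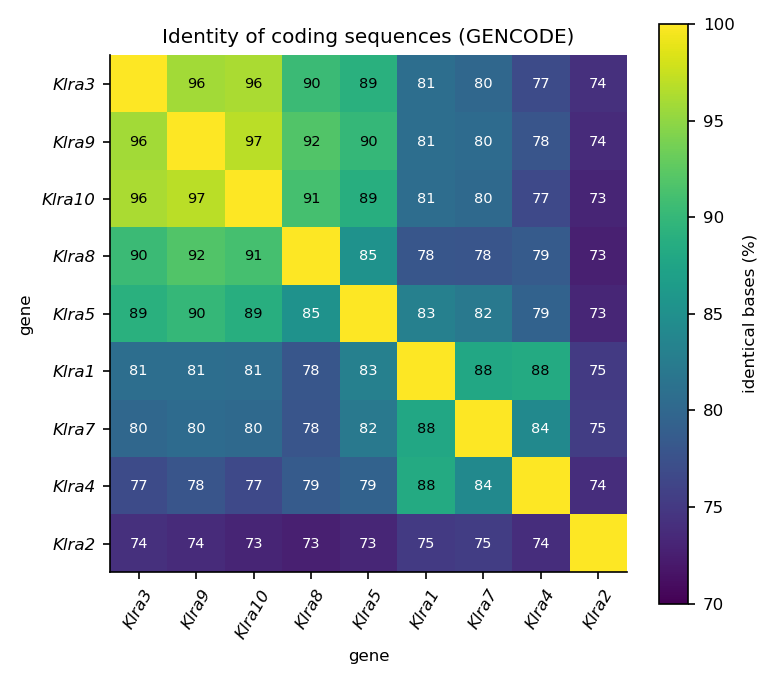
Percent of identical bases between the coding sequences of the 9 members (GENCODE M21), gene against gene, on a colour scale of 70 to 100%. Klra3, Klra9 and Klra10 form the block above 95%, and Klra2 is the lowest row.

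The Klra7 windows found elsewhere were all in Klra13-ps, the pseudogene with the same order of groups. The longest shared run is shown because reads within it cannot be told apart. It spans coding bases 669 to 790 of Klra7 (GENCODE M21, GRCm38, chromosome 6, minus strand, 5′ to 3′), a length of 122 bases.
Klra7 and Klra13-ps: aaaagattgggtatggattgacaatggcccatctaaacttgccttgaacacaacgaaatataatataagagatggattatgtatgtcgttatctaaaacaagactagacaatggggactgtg

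Over the 9 libraries the genes most like Klra7, by Pearson's r of log2 values and as a description, were Hmgb1 (0.97), Cd200 (0.96), Ptges3l (0.94), Zfp867 (0.94) and Lpar6 (0.94). None of these lies on chromosome 6, but Klra14-ps of the Ly49 cluster ranked 8 (r 0.93) and Klra13-ps ranked 79 (r 0.86) among the genes tested. Both pseudogenes share sequence with members, Klra14-ps with Klra8 and Klra13-ps with Klra7. Hmgb1, a DNA-binding protein of chromatin, had 5.84, 6.23 and 5.72 FPKM in old P311-/-, 15.7, 19.6 and 15.5 FPKM in old wild type and 10.8, 9.43 and 9.39 FPKM in young wild type. Among the members r with Klra7 was 0.90 for Klra4, 0.85 for Klra8, 0.50 for Klra9, 0.45 for Klra3 and 0.45 for Klra2. All these values share libraries and the 3 groups, so a gene with the same order of group means has a high r.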

How the data were processed

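Members and gene lists were chosen with earlier results of these data known. The authors deposited FPKM values for 54532 genes in 9 libraries. Gene lengths in bases were used as deposited by the authors. The submitters' processing notes name HISAT2 2.2.1, featureCounts 2.1.1, DESeq2 1.42.0 and the build mm39; gene coordinates matched GRCm38, with 98.3% of 54409 shared identifiers at the GENCODE M21 position, so positions are on GRCm38. Use of strand in counting is not given in the sources used here.

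Each deposited FPKM, times its gene length and a constant for the library, is a whole number of reads (100% of values, tolerance 0.001). These recovered reads served for depth, the filter and the alternative with voom. FPKM is not a count, so tests on counts with edgeR and DESeq2 were not run. Group means of log2 of FPKM plus 0.1 were compared with limma 3.58.1 (R 4.3.3; trended prior variance, robust moderation) for 14233 genes past the filter. All 9 libraries entered 1 fit without a block. Each comparison was adjusted by the Benjamini-Hochberg method over all genes tested, at 0.05. Fold changes are first group over second, with the standard error (SE) of the log2 value, and the pseudocount understates changes of low genes. SD is over libraries. The method was tested on simulated data. Limits from 0 reads (3 reads) cover counting error only. Named genes were the members, other Klra rows, Nrep, the called genes and the 3 highest of each list, the 5 genes most like Klra7 and the neighbours of the cluster; others are said to be chosen after their values were seen. The alternatives were another scaling, pseudocount and filter, a fit of 6 libraries, a replicate block and leaving out each library; voom was added after the data were seen.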

Additional observations from a re-analysis of the deposited data

How the results depend on the processing

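Of the log2 fold changes of the 6 tested members in the comparisons with young wild type, 166 alternatives kept direction and side of the threshold, 19 lost the call, 3 gained one and 4 changed sign. The changes of sign were Klra2 in old against young wild type without old wild-type replicate 3 (0.061) or young replicate 3 (0.037), Klra8 in the same comparison without old wild-type replicate 3 (-0.094), and Klra9 in old P311-/- against young wild type without young replicate 1 (-0.13). None of these passed. Leaving out each library gave -0.71 to 0.061 for Klra2 and -0.094 to 0.82 for Klra8 in old against young wild type, and -0.13 to 1.40 for Klra9 in old P311-/- against young wild type. Klra7 passed in old against young wild type under 7 of 16 alternatives (adjusted p 0.0192 to 0.125) and Klra3 under 6 (0.0193 to 0.130). Klra7 in old P311-/- against old wild type was at -2.27 to -1.26, the last with a pseudocount of 1.

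Members called in old against young wild type numbered 2. They numbered 0 under total-count scaling, 0 with no filter, 0 with the replicate block and 1 with voom. Leaving out 1 library at a time gave 0 to 2 members in old against young wild type and 0 to 2 in old P311-/- against young wild type. Receptors of the NK gene complex called in old against young wild type numbered 1 under total-count scaling, 0 with no filter, 0 with the replicate block and 4 in a fit of the 6 libraries, which also called 1 gene of NK function and 3 of ligands and signalling. Leaving out 1 library gave 0 to 4, 0 to 2 and 0 to 6 such receptors, 0 to 1, 0 to 5 and 0 to 3 genes of NK function, and 0 to 4, 0 to 11 and 0 to 4 of ligands and signalling, with the age comparison first, then old P311-/- against young and against old wild type.

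Over all genes in the same order, leaving out 1 library gave 0 to 1755, 4 to 2785 and 4 to 1875 calls, each highest without old P311-/- replicate 1, against 768, 57 and 10. The fit of 6 libraries gave 1653, 12 and 6, and the replicate block 0, 5 and 4. Total-count scaling gave 346 and 34 calls against young wild type, with 27.7% in place of 62.8% of the age calls higher, and no filter gave 5 and 23. In old P311-/- against young wild type a pseudocount of 1 gave 87 and voom 139. The labels do not say that equal replicate numbers mark paired samples, and deviations of same-numbered libraries correlated at -0.10 to 0.15, so they share only a number. The cause of these changes was not tested. Tests with edgeR and DESeq2 were not run. Low read numbers limit Klra1, Klra5 and Klra10.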
